A study of Mus musculus with 9 samples.

Results

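Olfactory receptor genes (Olfr) form the largest gene family of the mouse genome, and the intervals described here are those listed at their clusters after chromatin immunoprecipitation with sequencing (ChIP-seq) of KDM6A. An interval is a stretch in which an immunoprecipitation was scored against a background library. An interval was taken when it overlapped, by at least 1 bp, the span of a protein-coding Olfr gene extended by 5 kb on each side, on an autosome other than chromosome 11. Of the 142062 intervals in 5 lists, 1421 met this rule. They came from the windows of 1021 receptor genes, which joined into 11.6 Mb of sequence. Another 83 receptor genes on chromosome 11 and 6 on chromosome X were left out by the rule.

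The cells were Sv129 mouse embryonic stem cells, kept on gelatin with leukemia inhibitory factor and serum. KDM6A was immunoprecipitated from 2 samples of cells given 0.12 µM MTX for 24 h, which the labels list under genotype as folate deficiency, and from 2 samples of control cells without MTX, listed as WT. The labels give all samples the treatment term neurodevelopment. A nonspecific IgG was used on 1 sample of the MTX cells, and 4 inputs completed the 9 samples. Receptor intervals numbered 219 in MTX 1, 310 in MTX 2, 374 in control 1, 228 in control 2 and 290 in IgG. Expression was not measured, so the labelled cell type could not be checked against its markers. The labels do not state that the 2 libraries of each group are separate cultures. All spreads and p-values below measure only the difference between these libraries, which may be technical.

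Olfactory receptors are G protein-coupled receptors that bind odorants on the cilia of olfactory sensory neurons. Each neuron chooses a single receptor gene and keeps the rest silent in compact chromatin. The genes sit in tandem arrays of related copies, most with a coding sequence uninterrupted by introns. KDM6A, also called UTX, removes methyl groups that Polycomb complexes place on histone H3. MTX, the usual short name of methotrexate, is an inhibitor of dihydrofolate reductase, an enzyme of the folate cycle. Reads of receptor genes that are closely similar can map to more than 1 gene. How similar the copies are was not measured, and the authors' treatment of such reads is not known here. The gene to which an interval is assigned is therefore uncertain.

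Promoters are shown for receptor genes named below whose promoter was covered by an interval in at least 3 KDM6A libraries, or in both libraries of 1 group and neither of the other. The promoter of Olfr872, covered in both control libraries and in neither MTX library nor IgG, also met this rule and is not shown. They run from 250 bases before to 50 bases after the start of the gene model and were taken from RefSeq on GRCm38.p6, the build of mm10. Capitals mark 2 motifs on either strand: TAATTA, the core that many homeodomain factors bind, and TATAAA, the sequence of the TATA box. Matches were counted anywhere in the promoter, so a match to TATAAA is not by itself a TATA box. Except at Olfr1313, the gene model of each promoter shown begins at an ATG. Those windows are not centred on a measured transcription start. The promoter of Olfr466, at chr13:65151976-65152275 on the plus strand, was covered in all 4 KDM6A libraries and in IgG.
Olfr466: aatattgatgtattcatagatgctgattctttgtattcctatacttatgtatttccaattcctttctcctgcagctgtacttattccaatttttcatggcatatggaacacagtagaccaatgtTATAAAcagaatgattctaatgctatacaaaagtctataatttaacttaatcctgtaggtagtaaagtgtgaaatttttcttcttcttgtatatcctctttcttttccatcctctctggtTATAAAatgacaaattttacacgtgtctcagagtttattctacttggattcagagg
The promoters of Olfr776, at chr10:129260713-129261012 on the plus strand, Olfr968, at chr9:39772749-39773048 on the minus strand, and Olfr209, at chr16:59362167-59362466 on the minus strand, were each covered in 3 KDM6A libraries. IgG covered that of Olfr209 and neither of the other 2.
Olfr776: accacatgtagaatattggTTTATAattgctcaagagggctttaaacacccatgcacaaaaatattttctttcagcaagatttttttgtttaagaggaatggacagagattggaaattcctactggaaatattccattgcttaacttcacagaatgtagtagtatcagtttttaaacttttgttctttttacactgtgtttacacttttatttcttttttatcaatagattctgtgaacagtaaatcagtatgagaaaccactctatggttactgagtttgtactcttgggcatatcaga
Olfr968: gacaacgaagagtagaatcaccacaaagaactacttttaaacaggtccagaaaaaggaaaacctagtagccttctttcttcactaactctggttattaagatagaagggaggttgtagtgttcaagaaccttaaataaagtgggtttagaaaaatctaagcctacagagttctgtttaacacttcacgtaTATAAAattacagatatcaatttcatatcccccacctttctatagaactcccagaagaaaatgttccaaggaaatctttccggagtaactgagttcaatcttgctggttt
Olfr209: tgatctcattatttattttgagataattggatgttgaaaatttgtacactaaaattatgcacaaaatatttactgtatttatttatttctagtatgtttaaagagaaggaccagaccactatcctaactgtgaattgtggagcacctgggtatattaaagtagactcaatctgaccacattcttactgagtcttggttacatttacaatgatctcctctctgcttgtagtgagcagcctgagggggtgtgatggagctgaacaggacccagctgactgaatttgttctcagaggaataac
The promoter of Olfr788, at chr10:129472444-129472743 on the plus strand, was covered in both MTX libraries and in neither control library, and was covered in IgG too.
Olfr788: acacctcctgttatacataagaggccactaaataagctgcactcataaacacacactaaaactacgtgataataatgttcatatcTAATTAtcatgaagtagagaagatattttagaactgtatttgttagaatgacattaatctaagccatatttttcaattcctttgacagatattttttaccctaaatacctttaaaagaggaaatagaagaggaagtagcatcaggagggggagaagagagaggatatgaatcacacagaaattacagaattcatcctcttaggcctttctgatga
The promoters of Olfr1313, at chr2:112072534-112072833 on the minus strand, and Olfr771, at chr10:129160933-129161232 on the minus strand, were covered in both control libraries and in neither MTX library, and the second was covered in IgG.
Olfr1313: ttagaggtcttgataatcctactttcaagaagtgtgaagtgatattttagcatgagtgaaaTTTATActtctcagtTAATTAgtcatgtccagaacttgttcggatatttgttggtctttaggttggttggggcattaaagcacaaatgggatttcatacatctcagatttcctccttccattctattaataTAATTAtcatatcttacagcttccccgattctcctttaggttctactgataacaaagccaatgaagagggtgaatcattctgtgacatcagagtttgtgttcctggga
Olfr771: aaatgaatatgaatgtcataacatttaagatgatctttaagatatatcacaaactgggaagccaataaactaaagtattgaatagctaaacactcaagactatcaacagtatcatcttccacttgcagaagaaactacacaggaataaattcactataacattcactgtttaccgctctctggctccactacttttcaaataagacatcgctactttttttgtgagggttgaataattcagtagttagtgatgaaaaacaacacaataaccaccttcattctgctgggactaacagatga
Of the 7 shown, Olfr466, Olfr776, Olfr968 and Olfr1313 hold TATAAA, Olfr788 and Olfr1313 hold TAATTA, and Olfr209 and Olfr771 hold neither. In Olfr776 and Olfr1313 the TATAAA match is on the opposite strand, as TTTATA. The promoter of Olfr872, not shown, holds TAATTA and no TATAAA.

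Intervals lay more densely over receptor windows than over the rest of the same autosomes in all 5 libraries. They covered 5.72% of the window bases in MTX 1, 8.72% in MTX 2, 8.82% in control 1, 6.98% in control 2 and 8.81% in IgG. Over the rest of these autosomes they covered 3.10% in MTX 1, 3.76% in MTX 2, 5.07% in control 1, 2.78% in control 2 and 3.31% in IgG. The windows were thus covered more densely, by a ratio of 1.85 in MTX 1, 2.32 in MTX 2, 1.74 in control 1, 2.51 in control 2 and 2.66 in IgG. The IgG library, made with an antibody that has no specific target, stood above each of the 4 KDM6A libraries in this ratio, by a wide margin over MTX 1 and control 1 and a small one over control 2. The ratio was above 1 in 4 of 4 KDM6A libraries, for which an exact two-sided sign-flip test gave p = 0.125, the smallest it can give with 4 libraries. The IgG library, labelled as from the same MTX sample as MTX 1, was left out of this test.

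On the log2 scale the ratio averaged 1.05 ± 0.23 in MTX cells and 1.06 ± 0.37 in control cells (SD, n = 2 each). The difference, MTX minus control, was -0.01, well within the spread of either group, and the libraries of the groups interleaved. An exact two-sided permutation test gave p = 1, and no p under 0.33 was possible with 2 libraries against 2. Windows of the 354 vomeronasal receptor genes (Vmn1r and Vmn2r), the pheromone receptors and another large clustered family, lay between olfactory receptor windows and the rest of the autosomes in each library. Their ratio was 1.61 in MTX 1, 1.77 in MTX 2, 1.29 in control 1, 1.97 in control 2 and 1.90 in IgG. Olfactory windows exceeded vomeronasal windows by 0.34 ± 0.10 on the log2 scale over the 4 KDM6A libraries (SD, n = 4), in 4 of 4, with an exact p = 0.125.

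**Figure D1:**
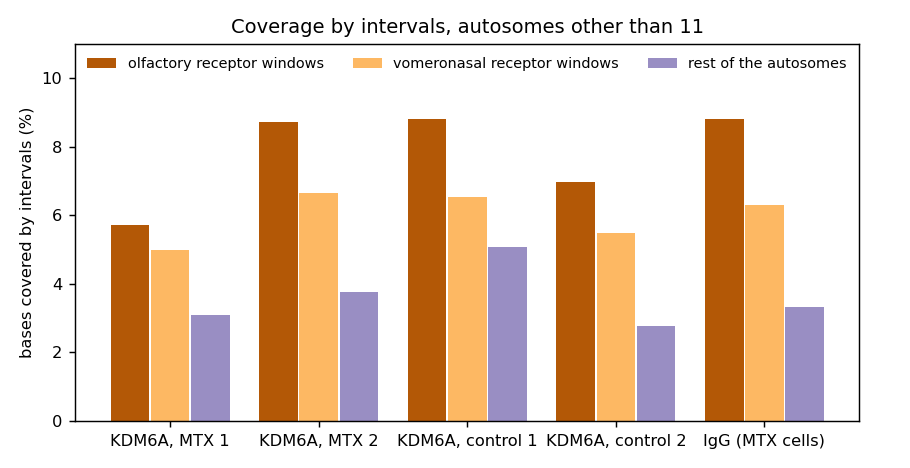
Percent of bases covered by intervals (vertical axis) in olfactory receptor windows, vomeronasal receptor windows and the rest of the autosomes other than 11, for each library (horizontal axis), 1 bar per library and kind of sequence. In all 5 libraries the olfactory receptor bar is the tallest, at 5.72 to 8.82%, and the bar of the rest is the lowest, at 2.78 to 5.07%.

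Coverage was highest close to the receptor genes and was lower between 10 and 20 kb away in each library. Within the gene spans it averaged 7.49 ± 1.63% over the 4 KDM6A libraries (SD, n = 4), and in the first kilobase on either side 8.63 ± 1.92%. It was 6.04 ± 0.81% from 4 to 5 kb, just inside the window, and 5.79 ± 0.94% from 5 to 6 kb, just outside it, so the window's edge marked no step. Between 10 and 20 kb it was 4.0 ± 1.02%, and beyond 1000 kb from any receptor gene 3.64 ± 1.02%. The IgG library followed the same course, with 9.36% in the spans, 9.93% in the first kilobase, 4.20% between 10 and 20 kb and 3.30% beyond 1000 kb. Inside the clusters, bases more than 5 kb from a receptor gene were covered at 3.11% in MTX 1, 4.53% in MTX 2, 4.87% in control 1, 3.13% in control 2 and 4.18% in IgG. These values were below those of the flanks in every library, which were 5.71% in MTX 1, 8.65% in MTX 2, 8.85% in control 1, 7.09% in control 2 and 8.70% in IgG. The dense coverage therefore followed the genes and their near flanks, and the stretches between genes of the same cluster were within 1 percentage point of the rest of the autosomes in each library.

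**Figure D2:**
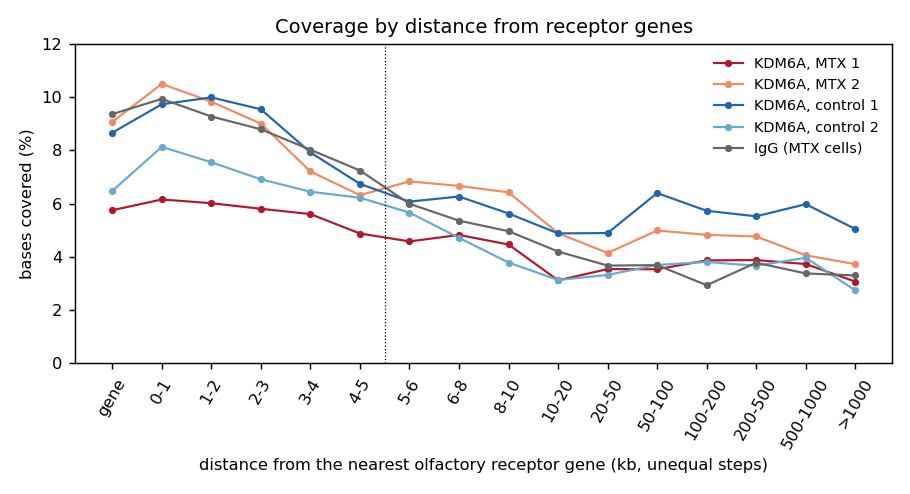
Percent of bases covered (vertical axis) by distance from the nearest olfactory receptor gene in kilobases (horizontal axis, unequal steps, the gene spans first), 1 line per library. The dotted line marks 5 kb, the edge of the windows. The KDM6A mean is 8.63% in the first kilobase and 4.0% between 10 and 20 kb, and the IgG line has the same shape.

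Folds at receptor intervals were modest in every library, IgG included. The fold deposited with each interval is the authors' own, immunoprecipitated over background reads with a constant per list, and its median at receptor intervals was 1.68 in MTX 1, 1.73 in MTX 2, 1.82 in control 1, 1.56 in control 2 and 1.71 in IgG. At the other intervals of the same autosomes it was 1.47 in MTX 1, 1.56 in MTX 2, 1.66 in control 1, 1.45 in control 2 and 1.54 in IgG. Receptor intervals were thus higher by 0.16 ± 0.04 in the KDM6A libraries (SD, n = 4), in 4 of 4, with an exact sign-flip p = 0.125. Median immunoprecipitated reads per kilobase were nearly level between receptor and other intervals, while median background reads were lower at receptor intervals. These medians are of listed intervals only, and the source of the fold difference was not tested. Immunoprecipitated reads per kilobase had medians of 33.6 in MTX 1, 34.3 in MTX 2, 28.1 in control 1, 33.8 in control 2 and 34.6 in IgG at receptor intervals. At other intervals these were 33.5 in MTX 1, 34.2 in MTX 2, 28.2 in control 1, 33.5 in control 2 and 34.3 in IgG, a mean difference of 0.09 ± 0.17 over the KDM6A libraries (SD, n = 4). Background reads per kilobase were 21.6 in MTX 1, 22.5 in MTX 2, 20.3 in control 1, 22.1 in control 2 and 21.0 in IgG at receptor intervals. At other intervals they were 24.5 in MTX 1, 24.7 in MTX 2, 22.6 in control 1, 24.0 in control 2 and 23.3 in IgG. Background was lower at receptor intervals in 4 of 4 KDM6A libraries, with a mean difference, receptor minus other, of -2.35 ± 0.44 reads per kilobase (SD, n = 4, exact p = 0.125), and in IgG as well.

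**Figure D3:**
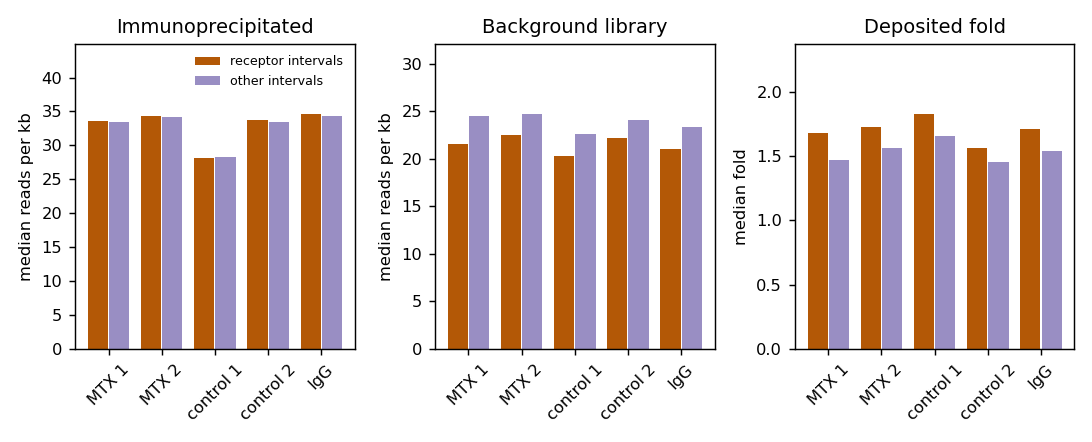
Median immunoprecipitated reads per kilobase, median background reads per kilobase and median deposited fold (vertical axes, left to right) of receptor intervals and of the other intervals on autosomes other than 11, for each library (horizontal axis). The immunoprecipitated bars are level within each library, while background is lower at receptor intervals in all 5.

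An interval counted as called when its deposited adjusted p was under 0.05 and its fold above 1. This held for 200 of 219 receptor intervals (91.3%) in MTX 1, where 78.7% of the whole list was called, and for 300 of 310 (96.8%) in MTX 2, against 83.7% of the list. It held for 359 of 374 (96.0%) in control 1, against 84.9%, and for 212 of 228 (93.0%) in control 2, against 78.5%. In IgG it held for 280 of 290 (96.6%), against 83.7% of that list. The share was higher at receptor intervals by 8.90 ± 0.34 percentage points than at other intervals of the same autosomes over the KDM6A libraries (SD, n = 4), in 4 of 4, and IgG showed the same excess. Receptor intervals held 26563 immunoprecipitated reads in MTX 1, 41417 in MTX 2, 33193 in control 1, 33126 in control 2 and 41941 in IgG, with a median width of 3000 to 4200 bp. The full depth of the libraries is unknown, since the lists count only reads within intervals.

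Receptor intervals overlapped IgG intervals more often than other intervals did, in 4 of 4 KDM6A libraries. The share that overlapped an IgG interval was 28.3% in MTX 1, 27.7% in MTX 2, 25.4% in control 1 and 32% in control 2. For other intervals of the same autosomes it was 20.6% in MTX 1, 18.8% in MTX 2, 15.5% in control 1 and 20.5% in control 2. The IgG library and MTX 1 had equal background counts in 52 of the 52 intervals with identical ends, so these lists are not independent.

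The receptor genes formed 42 clusters when genes less than 1 Mb apart were joined, and 19 clusters had at least 10 genes. The 8 clusters with most intervals held 1158 of the 1421 (81.5%) and 686 of the 1021 genes. The largest, on chromosome 2 from Olfr987 to Olfr1274 (85330967 to 90401674), had 222 genes and 371 intervals, which was 26.1% of the intervals and 21.7% of the genes. Its windows were covered at 6.27% in MTX 1, 11.9% in MTX 2, 10.4% in control 1, 7.26% in control 2 and 10.8% in IgG. The MTX libraries lay on both sides of the control libraries, and MTX 1 was the lowest of the 5.

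The cluster on chromosome 10 from Olfr9 to Olfr827 (128989914 to 130211128), with 58 genes, was the most densely covered of these 8. Its windows were covered at 14.4% in MTX 1, 18.3% in MTX 2, 15.7% in control 1, 21.6% in control 2 and 23.4% in IgG. Bases within 2 Mb around it and outside receptor windows were covered at 6.07% in MTX 1, 6.60% in MTX 2, 7.41% in control 1, 5.67% in control 2 and 6.17% in IgG. The windows exceeded this surrounding in each library, and IgG had the highest window coverage.

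Chromosome 7 carries several arrays. The one from Olfr543 to Olfr692 (102476773 to 105369317), with 126 genes, surrounds the beta-globin locus and is the home of the class I receptors, the family's older branch that is shared with fish. Its windows were covered at 5.45% in MTX 1, 6.46% in MTX 2, 6.72% in control 1, 3.81% in control 2 and 6.02% in IgG, which is less than in the cluster that follows on the same chromosome. That neighbour, from Olfr693 to Olfr519 (106677534 to 108894405), has 67 genes and was covered at 6.46% in MTX 1, 14.5% in MTX 2, 12.7% in control 1, 8.39% in control 2 and 18.3% in IgG. The class I array was close to its surroundings: within 2 Mb of the class I array, outside receptor windows, coverage was 5.07% in MTX 1, 6.11% in MTX 2, 6.85% in control 1, 4.83% in control 2 and 5.19% in IgG. The class I array was above that in both MTX libraries and in IgG, and below it in both control libraries, by less than 2 percentage points in each.

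Chromosome 9 has a pair of arrays. The array from Olfr160 to Olfr986 (37711348 to 40188094), with 95 genes, was covered at 8.05% in MTX 1, 8.76% in MTX 2, 12% in control 1, 7.25% in control 2 and 10.2% in IgG. The array from Olfr24 to Olfr18 (18754692 to 20336094), with 35 genes, was covered at 7.69% in MTX 1, 10.4% in MTX 2, 13.9% in control 1, 6.17% in control 2 and 10.5% in IgG. In both the control libraries lay at the extremes of the KDM6A values, with the MTX libraries between them. On chromosome 17 the array from Olfr90 to Olfr136 (37085191 to 38336097), 46 genes next to the major histocompatibility complex, was covered at 8.75% in MTX 1, 10.8% in MTX 2, 9.83% in control 1, 13.1% in control 2 and 13.3% in IgG. The second array of chromosome 2, from Olfr1275 to Olfr1318 (111230853 to 112157007), with 37 genes, was covered at 4.70% in MTX 1, 7.94% in MTX 2, 11.5% in control 1, 5.18% in control 2 and 13.0% in IgG. MTX and control libraries overlapped in all 8 of these clusters.

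**Figure D4:**
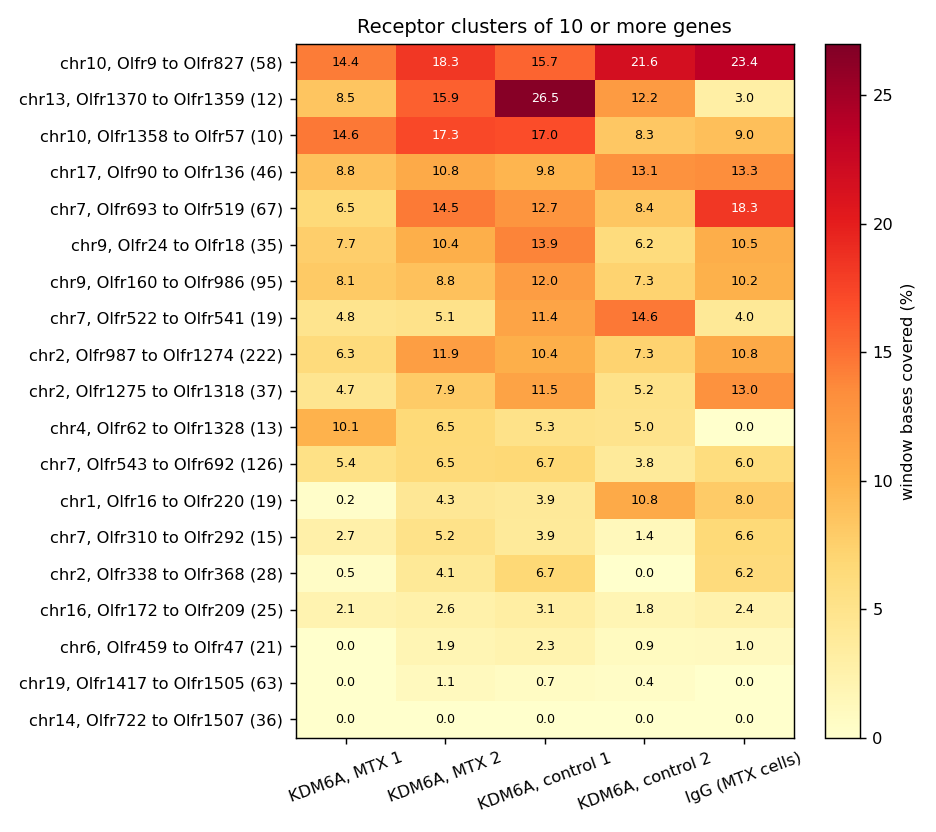
Percent of window bases covered in the 19 clusters of at least 10 receptor genes (rows, with the gene count in brackets, ordered by the KDM6A mean) in each library (columns). The array on chromosome 10 from Olfr9 to Olfr827 heads the rows at 14.4 to 23.4%, and the array on chromosome 14 is at 0 in all 5 columns.

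Among the 19 clusters, the coverage of MTX and control libraries did not overlap in 2 (10.5%). The array on chromosome 7 from Olfr522 to Olfr541, with 19 genes, was covered at 4.81% in MTX 1 and 5.14% in MTX 2, and at 11.4% in control 1 and 14.6% in control 2, with 4.04% in IgG. The array on chromosome 4 from Olfr62 to Olfr1328, with 13 genes, went the other way, at 10.1% in MTX 1 and 6.55% in MTX 2, and at 5.26% in control 1 and 4.98% in control 2, with no interval in IgG. The first rests on 4 intervals in MTX 1, 5 in MTX 2, 9 in control 1 and 10 in control 2, and the second on 3 or 4 in each. Both were singled out after their values were seen. As a description, Spearman's rho of coverage over the 19 clusters averaged 0.81 for the 2 pairs of libraries of the same group, 0.78 for the 4 pairs between groups and 0.62 for the 4 pairs of a KDM6A library with IgG. The points share the same windows, and IgG shares its background library with MTX 1. Window coverage exceeded that of the surrounding 2 Mb in 12 of the 19 clusters in MTX 1, 16 in MTX 2, 11 in control 1, 12 in control 2 and 14 in IgG. It did so in all 4 KDM6A libraries in 10 clusters, and fell short of it in all 4 in 2.

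Several arrays had no interval in a library. The 36 genes on chromosome 14 from Olfr722 to Olfr1507 (49894258 to 52495695) had none in any of the 5. Between 43321000 and 68434601 on that chromosome the 5 lists together held 2 intervals, 1 of MTX 2 and 1 of IgG, over 25.1 Mb and 352 protein-coding genes, whereas the longest gap on the other autosomes was 3.10 Mb. The 0 of this array is therefore a property of the lists over that whole stretch. The 63 genes on chromosome 19 from Olfr1417 to Olfr1505 (11828077 to 13919972) had no interval in MTX 1 or IgG, 2 in MTX 2, 3 in control 1 and 1 in control 2. Coverage there was 1.13% in MTX 2, 0.67% in control 1 and 0.44% in control 2, below the 0.56 to 1.99% of the surrounding 2 Mb in each KDM6A library. The array on chromosome 6 from Olfr459 to Olfr47 had no interval in MTX 1, that on chromosome 2 from Olfr338 to Olfr368 none in control 2, and each of these 2 arrays had between 1 and 7 in every other library. In all, 4 clusters with 40 genes had no interval in any library, and 18 had an interval in all 5.

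Placement within the windows was compared for each pair of libraries. The bases covered in both were set against the product of the covered shares, so that 1 means independent placement. Within receptor windows this ratio averaged 2.21 for the 2 pairs of the same group, 1.95 for the 4 pairs between groups and 2.16 for the 4 pairs with IgG. Over the rest of the same autosomes it was 3.66 for pairs of the same group, 3.92 between groups and 4.20 with IgG. The ratio was lower within receptor windows than over the rest in each of the 10 pairs. The highest value it can take falls as coverage rises, and the windows were more densely covered. A lower ratio therefore does not show poorer agreement there. Pairs of the same group, at 1.91 and 2.50, lay on both sides of the range of the pairs with IgG, 2.07 to 2.29.

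Joining receptor intervals across the 4 KDM6A libraries wherever they met gave 774 regions. Of these, 543 (70.2%) came from 1 library alone, against 78.8% of the 73553 regions of the same autosomes. All 4 libraries met in 15 (1.94%), against 1.58% of all regions. In 26 (3.36%) both MTX and neither control library had an interval, against 1.93%, and in 34 (4.39%) both control and neither MTX library did, against 2.55%. The 774 join receptor intervals only, whereas the 73553 join all intervals. When all intervals were joined, 773 regions touched a receptor window, of which 515 (66.6%) came from 1 library, 21 (2.72%) from all 4, 28 (3.62%) were MTX-only and 33 (4.27%) control-only. Among the 774, pairs across the groups were in the same range: 27 regions were held by MTX 1 and control 1 alone, 44 by MTX 2 and control 1, 25 by MTX 2 and control 2, and 11 by MTX 1 and control 2. An IgG interval overlapped 11 of the 15 regions of all 4 libraries (73.3%, exact Clopper-Pearson 95% interval 44.9 to 92.2%). It overlapped 8 of the 26 MTX-only regions (30.8%, 14.3 to 51.8%) and 6 of the 34 control-only regions (17.6%, 6.76 to 34.5%). These intervals cover counting error only. Over all regions of the same autosomes, IgG overlapped 73.2% of those in all 4 libraries, 23.3% of MTX-only and 21.0% of control-only regions. The median width was 10800 bp for receptor regions in all 4 libraries, 5600 bp for MTX-only and 5300 bp for control-only regions. Over all regions of the same autosomes it was 11000, 5400 and 5200 bp in the same order.

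Where all 4 libraries had an interval, read counts could be compared. A region's count sums the reads inside each library's own intervals there. Immunoprecipitated and background counts thus both depend on how much of the region those intervals cover, and the test does not separate this from read density. All intervals of the genome were joined for this, which gave 2132 regions in all 4 libraries, of which 21 touched a receptor window. That is more than the 15 above because receptor intervals were here joined with neighbours outside the windows. edgeR's quasi-likelihood test with Benjamini-Hochberg adjustment called 0 of the 2132 regions between MTX and control cells (0%), and 73 (3.42%) had an unadjusted p under 0.05. None of the 21 receptor regions was called or had an unadjusted p under 0.05. DESeq2 called 16 of the 2132, 8 higher and 8 lower, and gave 3 of the 21 receptor regions an unadjusted p under 0.05. The log2 fold change of the receptor regions, MTX over control, ran between -0.79 and 1.05 with a median of 0.01, and that of all 2132 had a median of -0.03. It was above 0 in 12 and below 0 in 9.

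The receptor region with the highest log2 fold change lay at Olfr1123 and Olfr1124 on chromosome 2 (87422601 to 87433200). It had 148 immunoprecipitated reads in MTX 1, 270 in MTX 2, 78 in control 1 and 95 in control 2, and its background counts were 118 in MTX 1, 215 in MTX 2, 84 in control 1 and 42 in control 2. The groups did not overlap, and the log2 fold change of 1.05 had an edgeR adjusted p = 0.998. Background was higher in the MTX libraries too, but it was summed over the same intervals as the immunoprecipitated reads. The region with the lowest, at Olfr94 on chromosome 17 (37193001 to 37199400), had 91 reads in MTX 1, 94 in MTX 2, 135 in control 1 and 143 in control 2, with a log2 fold change of -0.79 (edgeR adjusted p = 0.998). Background there was 71 in MTX 1, 62 in MTX 2, 141 in control 1 and 113 in control 2, so it too was lower in the MTX libraries. At Olfr209 on chromosome 16 the region had 141 reads in MTX 1, 157 in MTX 2, 50 in control 1 and 114 in control 2, with a log2 fold change of 0.75 (edgeR adjusted p = 0.998). The interval ran from 59360001 to 59362400 in MTX 1 and from 59361201 to 59362000 in control 1, so these counts cover unlike lengths. CPM (counts scaled to the total at shared regions, with TMM) did not overlap between the groups in 5 of the 21 receptor regions, where 29.7% of all 2132 did not. These 3 regions were singled out after their values were seen.

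**Figure D5:**
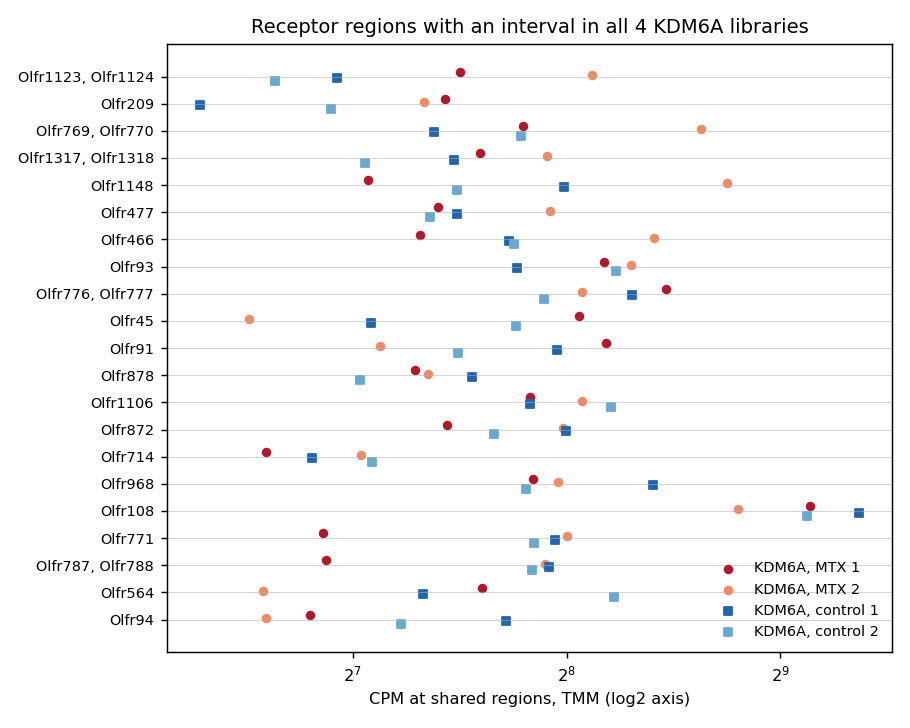
Immunoprecipitated reads at shared regions as CPM after TMM scaling (horizontal log2 axis) for the 21 receptor regions with an interval in all 4 KDM6A libraries (rows, named by receptor gene, highest MTX over control at the top), 1 point per library. MTX and control points interleave in most rows, and log2 fold changes run between -0.79 and 1.05.

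Counted by gene, 224 of the 1021 receptor windows (21.9%) held an interval in MTX 1, 292 (28.6%) in MTX 2, 353 (34.6%) in control 1, 226 (22.1%) in control 2 and 287 (28.1%) in IgG. Among all 19056 protein-coding genes of the same autosomes the share was 33.1% in MTX 1, 30.6% in MTX 2, 48.1% in control 1, 25% in control 2 and 27.2% in IgG. Receptor genes were below the background in the KDM6A libraries and near it in IgG, although their sequence was more densely covered. Their median span is 949 bp, against 17854.5 bp for all protein-coding genes of these autosomes, so a receptor window offers less sequence to meet an interval. All 4 KDM6A libraries had an interval in the windows of 26 receptor genes (2.55%, against 12.1% of all genes), both MTX and neither control library in 33 (3.23%, against 1.34%), and both control and neither MTX library in 40 (3.92%, against 2.31%). An IgG interval lay in 15 of the 26, 9 of the 33 and 16 of the 40 windows. No KDM6A library had an interval in the windows of 388 genes.

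Without the flanks, the gene span itself was overlapped in all 4 KDM6A libraries in 7 receptor genes (0.686%, against 10.8% of all genes): Olfr872, Olfr776, Olfr466, Olfr91, Olfr968, Olfr878 and Olfr209. IgG had an interval in 4 of these spans. Olfr872 on chromosome 9 (20237162 to 20260913) had folds of 1.54 in MTX 1, 4.31 in MTX 2, 1.72 in control 1, 2.39 in control 2 and 1.85 in IgG. MTX 2 was the highest, with 73 immunoprecipitated and 19 background reads in that interval, and the MTX and control libraries overlapped. Over the region that all 4 KDM6A libraries held there (20252401 to 20265200), MTX 2 had 246 and 131 reads. This interval was therefore not its only one at the gene. The mean of these folds was 2.92 ± 1.96 in MTX and 2.06 ± 0.48 in control cells (SD, n = 2 each). The MTX 2 value in it is that of its highest interval alone. The KDM6A intervals with these folds lay toward the far end of a long gene model and all covered 20260601 to 20261000. The IgG interval, 20251801 to 20256600, ended before that stretch. Both control libraries, and neither MTX library, also had an interval over the promoter at the other end of the gene model.

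Olfr776 on chromosome 10 (129260963 to 129261901) had folds of 1.63 in MTX 1, 2.07 in MTX 2, 1.45 in control 1 and 1.48 in control 2, with no IgG interval in the span. An IgG interval lay within 5 kb of it, the one that overlaps the neighbouring Olfr777. Both MTX libraries were above both control libraries, with 1.85 ± 0.32 in MTX and 1.46 ± 0.02 in control cells (SD, n = 2 each). These folds are from unlike places. The interval ran from 129261801 to 129266000 in MTX 1 and from 129258201 to 129261400 in control 1, with no shared base. The exact two-sided permutation test could not go under p = 0.33 for any such gene, and these genes were chosen by their lowest fold, so no test was made. Olfr466 on chromosome 13 (65152226 to 65153152), whose promoter was covered throughout, had low folds of 1.3 in MTX 1, 1.37 in MTX 2, 1.47 in control 1, 1.47 in control 2 and 1.39 in IgG. Its IgG fold was between those of the MTX and control libraries.

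At Olfr209 on chromosome 16 (59361224 to 59362240) the folds were 1.63 in MTX 1, 1.42 in MTX 2, 1.74 in control 1, 0.85 in control 2 and 1.27 in IgG. The value of control 2 is under 1 with an adjusted p of 1, so an interval listed there had fewer reads than its scaled background. The lists also hold such intervals elsewhere: 2 of the receptor intervals in MTX 1, 2 in MTX 2, 1 in control 1, 4 in control 2 and 1 in IgG had a fold under 1. At Olfr968 and Olfr878, both on chromosome 9, the deposited adjusted p was above 0.05 in MTX 1, at 0.0857 for Olfr968 and 0.119 for Olfr878. For Olfr878 it was also above in control 1, at 0.0873. At Olfr968 the MTX 1 interval, 39772401 to 39775600, and the control 1 interval, 39767601 to 39771800, shared no base. Olfr91 on chromosome 17 (37092845 to 37132991) had its MTX 2 interval of highest fold, 1.76, at 37113001 to 37117000 within a long gene model. That interval lay apart from those of the other KDM6A libraries. MTX 2 also had an interval, with a fold of 1.35, in the region at this gene that all 4 KDM6A libraries shared (37123801 to 37136600).

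Per library, the span itself was overlapped in 93 receptor genes (9.11%) in MTX 1, 149 (14.6%) in MTX 2, 137 (13.4%) in control 1, 108 (10.6%) in control 2 and 139 (13.6%) in IgG. Among all genes the shares were 27.7% in MTX 1, 25.7% in MTX 2, 39.8% in control 1, 21.2% in control 2 and 23% in IgG. Both MTX and neither control library overlapped the span of 9 receptor genes (0.881%, against 1.06% of all genes), and both control and neither MTX library that of 14 (1.37%, against 1.82%). These shares are near or below the background. Among the MTX-only genes, Olfr1153 on chromosome 2 (87896177 to 87897133) had folds of 2.70 in MTX 1, 2.10 in MTX 2 and 1.35 in IgG. Olfr798 on chromosome 10 (129625124 to 129626059) had folds of 2.07 in MTX 1 and 1.96 in MTX 2, with no interval in IgG. Olfr687 on chromosome 7 (105227717 to 105276461) had folds of 2.76 in MTX 1 and 2.03 in MTX 2, at 2 separate places of a long gene model. Olfr788 and Olfr777, both in the chromosome 10 array, had MTX folds of 1.83 to 2.06 and were overlapped by IgG, with folds of 1.59 at Olfr788 and 1.65 at Olfr777. Control intervals lay within 5 kb of both genes, and both genes lay in joined regions that all 4 KDM6A libraries held.

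Among the control-only genes, Olfr44 on chromosome 9 (39484204 to 39493988) had folds of 2.61 in control 1 and 3.61 in control 2. These intervals, 39489401 to 39492600 in control 1 and 39486201 to 39488800 in control 2, shared no base. Olfr1313 and Olfr1307, neighbours in the second array of chromosome 2, had folds of 1.89 in control 1 and 1.67 in control 2 at Olfr1313, and of 1.65 in control 1 and 2.19 in control 2 at Olfr1307. Olfr965 on chromosome 9 (39719229 to 39720167) had folds of 1.97 in control 1 and 1.95 in control 2, and Olfr771 on chromosome 10 (129160029 to 129160982) had 1.86 in control 1, 1.64 in control 2 and 1.68 in IgG. MTX intervals lay within 5 kb of Olfr965 and Olfr771, and Olfr771 lay in a joined region that all 4 KDM6A libraries held. Since 388 windows had no KDM6A interval at all and 543 regions came from 1 library, absence from a list at these genes does not measure a change in KDM6A.

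The highest folds came from small intervals in 1 library. In MTX 1 the highest was 13.1, with 49 immunoprecipitated and 4 background reads over 600 bp at Olfr553 (chromosome 7, 102613801 to 102614400), and no other library had an interval there. In MTX 2 it was 4.43, with 83 and 21 reads, near Olfr1022. In control 1 it was 15.6, with 59 immunoprecipitated and 5 background reads over 1400 bp at Olfr1030 (chromosome 2, 85981401 to 85982800), and in control 2 it was 3.70, with 103 and 29 reads, near Olfr1061. None of these 4 was listed in another library. In IgG the highest was 5.40, with 78 and 15 reads, near Olfr1148, where both control libraries had an interval too. Of these 5 intervals, 4 were in the large array of chromosome 2.

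Receptor promoters differ in base composition from other promoters. RefSeq gave 869 promoters for 866 of the 1021 genes. Their median GC content was 34.7%, against 53.3% in 28238 other promoters of the same autosomes, and 34.3% held no CpG, against 4.49%. In 633 of the 869 (72.8%) the gene model began at an ATG, so for these the window ends within coding sequence and is not centred on a measured transcription start. TATAAA on either strand was present in 42.2% of receptor promoters and 12.8% of others, and TAATTA in 18.6% and 4.87%. A motif of the EBF transcription factors was counted too, and it went the other way. It was present in 5 of the 869 receptor promoters (0.575%) and in 0.935% of others. TATAAA and TAATTA shared a base in 6 of the 869. Intervals covered 6.90% of receptor promoters in MTX 1, 10.6% in MTX 2, 10.5% in control 1, 9.09% in control 2 and 11.5% in IgG. For other promoters the shares were 5.39% in MTX 1, 2.22% in MTX 2, 8.0% in control 1, 1.65% in control 2 and 3.54% in IgG. The 46 receptor promoters covered in at least 2 KDM6A libraries had a median GC content of 33.8%, against 35.3% in the 607 covered in none. TATAAA was in 50% of the first set and 39.2% of the second, and TAATTA in 10.9% of the first and 19.1% of the second. The EBF motif was in none of the first and 0.494% of the second. As a description over the 19 larger clusters, Spearman's rho between the median GC content of a cluster's promoters and its coverage was -0.05 for the mean of the KDM6A libraries and -0.49 for IgG.

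The other genes of olfactory receptor choice and odorant signalling were taken as a list of 17. An interval lay in the gene span of 7 in MTX 1, 6 in MTX 2, 10 in control 1, 7 in control 2 and 6 in IgG. Among all protein-coding genes of autosomes other than 11 the share was 27.7% in MTX 1, 25.7% in MTX 2, 39.8% in control 1, 21.2% in control 2 and 23% in IgG, and 10.8% had one in all 4 KDM6A libraries. Of the list, all 4 had one at 4: Ric8b, a chaperone of the olfactory G protein, Ebf1 and Ebf4, EBF transcription factors, and Kdm1a, a histone lysine demethylase needed for receptor choice in mice. IgG had an interval at each of these 4. Ebf1 spans 390.0 kb on chromosome 11, which lies outside the rule and is dense in intervals in every library. Kdm1a spans 52.3 kb, Ebf4 75.4 kb and Ric8b 101 kb, against a median of 17854.5 bp for all protein-coding genes of autosomes other than 11. In none of the 5 libraries was there one at Omp, the olfactory marker protein, Cnga4, a subunit of the odorant-gated channel, Rtp1 and Rtp2, receptor transport proteins, Atf5, Emx2 or Ebf2. Apart from Ebf2, these genes are short, from 2.09 kb at Omp to 8.75 kb at Cnga4. The part played by gene length was not tested. Ebf2 lies within the stretch of chromosome 14 where the 5 lists hold 2 intervals, so its absence is again a property of the lists. Gnal, the olfactory G protein alpha subunit, had intervals in MTX 2 and both control libraries, with highest folds of 1.80 in MTX 2, 2.42 in control 1 and 2.98 in control 2. Adcy3, the adenylyl cyclase of odorant signalling, had them in both control libraries alone, with folds of 1.82 in control 1 and 1.56 in control 2. Lhx2, a homeodomain factor of receptor enhancers, had highest folds of 0.93 in MTX 1, 1.29 in MTX 2, 1.36 in control 1 and 1.32 in IgG. Its partner Ldb1 had an interval in control 1 alone, with a fold of 1.26. Ebf3, another EBF factor, had highest folds of 1.52 in MTX 1, 1.73 in control 1 and 1.04 in control 2. Lbr, the lamin B receptor of the nuclear envelope, had 1.67 in MTX 1, 1.31 in control 1 and 0.86 in IgG.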

How the data were processed

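KDM6A and IgG ChIP-seq interval lists of 5 libraries were analysed, 1 list per library. The 4 inputs were not used here. The labels' protocols give 30 cycles of amplification. The submitters' processing notes name Bowtie2 and mm10. Which program called the intervals is not stated in the sources. The authors deposited whole read counts of the immunoprecipitation and of a background library for each interval. They also deposited a fold, the ratio of these counts times a constant per list, and a p-value with its adjusted p-value. Lists have no header and follow a 200 bp grid.

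All intervals were kept, whatever their p. Genes came from a RefSeq table of GRCm38.p6 with 21887 protein-coding genes, matched by symbol, and promoters from the RefSeq promoter table. Coordinates are counted from 1. Coverage was the percent of bases under intervals, computed per library with Python 3.11.15, numpy 2.4.6, pandas 2.3.3 and scipy 1.17.1. Group differences and signs were tested with exact two-sided tests over libraries. Reads at regions held by all 4 KDM6A libraries were compared by the quasi-likelihood test of edgeR 4.0.16 (R 4.3.3, TMM, Benjamini-Hochberg over all 2132 regions), with DESeq2 1.42.0 and limma 3.58.1 (log2 fold over background, pseudocount 0.5) as alternatives. Interval arithmetic and the edgeR step were checked on simulated data.

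Named genes followed a rule: genes whose span had an interval in all 4 KDM6A libraries (up to 10, by the fold of the library where it is lowest), up to 5 for each group-only class, the gene nearest to the highest fold of each library, and a list of 17 genes of receptor choice and signalling. Clusters with values were the 8 with most intervals and those of at least 10 genes with none in a library. The members and lists were chosen with earlier results of these data known.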

Additional observations from a re-analysis of the deposited data

How the results depend on the processing

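The log2 coverage ratio of receptor windows stayed above 0 in both groups under each alternative run. Its MTX mean, 1.05, was 0.78 with 20 kb flanks, 0.54 for whole clusters and 1.56 with the better 50% of each list, and its control mean, 1.06, was 0.51 for whole clusters and 1.49 with the better 50%. Against the windows of all other protein-coding genes, an alternative chosen after seeing the data, the MTX mean was 0.72 and the control mean 0.74. Without chromosome 14, also chosen after seeing the data, the means were 1.08 in MTX and 1.10 in control cells. The MTX minus control difference of -0.01 turned to 0.087 without flanks, 0.068 with 20 kb flanks, 0.032 for whole clusters, 0.070 with the better 50% and 0.069 without intervals that overlap IgG, and ran between -0.28 and 0.25 when each library was left out. Regions in all 4 libraries, 15, were 7 without flanks, 28 for whole clusters, 7 with the better 50% and 5 without intervals that overlap IgG, and 21 to 41 with a library left out. MTX-only regions, 26, were 8 without flanks, 16 with the better 50% and 33 to 170 with a library left out, the highest without MTX 1. Control-only regions, 34, were 12 without flanks, 14 with the better 50% and 43 to 233 with a library left out, the highest without control 2. Leaving out a library asks for fewer libraries in each class and so raises these counts by construction. For the other changes the cause was not tested.

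The 0 calls of edgeR over 2132 regions became 16 with DESeq2 and 0 to 4 with a library left out (4 without MTX 1, 3 without control 1, 4 without control 2), where the lone library of a group was assumed to vary like the others. The replicate block gave 0 calls, 113 unadjusted p under 0.05 and a smallest adjusted p of 0.0888, against 73 and 0.998 without it. Crossed pairing, chosen after seeing the data, gave 0 calls and 54 unadjusted p under 0.05. The labels do not say that a number marks a shared batch. Deviations of libraries with the same number correlated at 0.13, and 2 pairs are too few to tell whether the numbers pair the libraries, so the block was kept as an alternative. Counts at these intervals cover only reads within lists, so a region absent from a list has no count, and changes there could not be tested.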

Other observations

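Receptor windows on chromosome 11, outside the rule, were covered at 19.0% in MTX 1, 37.8% in MTX 2, 19.98% in control 1, 42.5% in control 2 and 21.3% in IgG. The rest of that chromosome was covered at 14.2% in MTX 1, 20.4% in MTX 2, 15.5% in control 1, 20.1% in control 2 and 13.8% in IgG, so the 83 receptor genes there lie on a chromosome that is dense in intervals in every library. The number 2 libraries of both groups had the highest window coverage, and MTX and control libraries overlapped. The 6 receptor genes on chromosome X had no interval in any library, on a chromosome that held 2 intervals in MTX 1, 8 in MTX 2, 20 in control 1, 7 in control 2 and 3 in IgG.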
